A study of Sus scrofa with 32 samples.

Results

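The genes described here encode the proteins of the basement membrane and its closest partners in the endometrium of the pig: 38 genes, chosen by name and matched by symbol to the NCBI gene IDs of 30185 counted genes. They comprise the laminin chains (5 alpha, 3 beta and 2 gamma), the 6 collagen IV chains, the anchoring collagens COL7A1 and COL17A1, COL15A1 and COL18A1, the nidogens NID1 and NID2, the heparan sulfate proteoglycans HSPG2 and AGRN, SPARC, SMOC1 and SMOC2, the fibulins FBLN1, FBLN2 and FBLN5, the Fraser complex genes FRAS1, FREM1 and FREM2, the laminin receptors DAG1 and BCAM, and PXDN, TINAGL1 and NTN4. Cells were cut from frozen endometrial sections by laser capture microdissection (LCM) on Day 14, namely the epithelium of the lumen (LE) and of the glands (GE), blood vessels (BV) and the stroma (S). All 8 gilts were prepuberal and were synchronized with eCG followed by hCG; the 4 pregnant gilts (P39, P41, P43 and P139, after the labels) were then inseminated with semen, and the 4 cyclic gilts (C40, C42, C78 and C128, labelled nonpregnant) with semen supernatant of the same boar. Pregnant endometrium came from the hyperemic zones where conceptuses attach, after the conceptus had been taken off, so that pregnancy and sampling site cannot be told apart. Each gilt gave 1 library per compartment, except that the GE library of gilt P41 was not analysed here, which leaves 3 pregnant and 4 cyclic GE libraries and 31 libraries in all.

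A basement membrane is a thin sheet of matrix under every epithelium and endothelium and around smooth muscle. Laminins, each built of an alpha, a beta and a gamma chain, assemble on the cell surface through integrins and dystroglycan, and a collagen IV network forms beside them, tied to the laminins by nidogens and the heparan sulfate proteoglycan perlecan. In the pig the conceptus attaches to the luminal epithelium without crossing it, so the basement membranes of the uterus stay in place while the epithelium, the glands and the vessels beneath it change.

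Library totals were 2415216 to 7081556 counts, and no pair of libraries held identical counts. A gene was called detectable in a compartment when it was in the authors' filtered table of that compartment, which held 11935 genes in S, 11096 in BV, 11905 in GE and 12002 in LE. Of the 38 members, 34 were detectable in S, 33 each in BV and GE and 37 in LE, and 32 in all compartments. COL4A3 was detectable in none, LAMB3, COL4A4 and COL17A1 in LE only, LAMA1 in all but GE and SMOC1 in all but BV. Levels are given as CPM, counts scaled to the size of the library after TMM normalization of the 31 libraries together, and levels of different genes are compared only as CPM per kb of annotated exon. Members took 0.214% to 0.429% of the counts of a GE library, 0.383% to 0.870% in LE, 1.39% to 2.19% in BV and 1.59% to 1.78% in S. Because these are bulk captures, fewer cells of a type and less RNA per cell cannot be told apart. Epithelial markers (12 genes summed, among them EPCAM, CDH1 and keratins) were at 1865 to 3727 CPM in LE and GE libraries against 3.69 to 527 CPM in BV and S, and endothelial markers (10 genes, among them PECAM1 and CDH5) at 1610 to 3194 CPM in BV. S libraries also held 552 to 2956 CPM of these endothelial markers. LE libraries held 140 to 1077 CPM of them and GE libraries 16.8 to 189 CPM. Fibroblast markers (9 genes, among them those of collagens I and III) reached 4147 to 17304 CPM in LE and 2904 to 7556 CPM in GE, against 25353 to 106800 CPM in BV and S.

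Genomic sequence is shown for the collagen IV pair that gave the highest collagen IV levels. It is also shown for some members called in the pregnancy comparison (TINAGL1 and LAMB3 in LE, LAMC3 in BV). All windows were read from the plus strand of Sscrofa11.1 with its RefSeq annotation. COL4A1 and COL4A2 lie head to head on chromosome 11, with annotated 5′ ends at 76997409 on the minus strand and 76996885 on the plus strand, so their gene models overlap by 525 bases. The window below, chr11:76997410-76997542, begins just upstream of the COL4A1 start and ends where a second COL4A2 model begins; it lies in an intron of the longer COL4A2 model. The others are the 250 bases before the annotated starts, at chr6:88095400-88095649, chr9:133297759-133298008 and chr1:271004173-271004422. Capitals mark GGGCGG (the GC box) and CCAAT, read on both strands.
COL4A1-COL4A2: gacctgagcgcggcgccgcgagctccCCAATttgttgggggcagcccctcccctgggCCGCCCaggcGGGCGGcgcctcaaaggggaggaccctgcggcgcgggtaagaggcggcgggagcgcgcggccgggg
TINAGL1: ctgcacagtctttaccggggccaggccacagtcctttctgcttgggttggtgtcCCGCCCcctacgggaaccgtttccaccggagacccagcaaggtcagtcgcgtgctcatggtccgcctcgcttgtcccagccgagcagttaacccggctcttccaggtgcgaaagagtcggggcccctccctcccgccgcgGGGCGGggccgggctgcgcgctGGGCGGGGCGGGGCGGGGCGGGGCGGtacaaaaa
LAMB3: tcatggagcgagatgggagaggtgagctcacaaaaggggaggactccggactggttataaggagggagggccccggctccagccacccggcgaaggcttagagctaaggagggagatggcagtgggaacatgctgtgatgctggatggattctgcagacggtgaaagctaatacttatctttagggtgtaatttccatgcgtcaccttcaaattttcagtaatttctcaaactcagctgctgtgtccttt
LAMC3: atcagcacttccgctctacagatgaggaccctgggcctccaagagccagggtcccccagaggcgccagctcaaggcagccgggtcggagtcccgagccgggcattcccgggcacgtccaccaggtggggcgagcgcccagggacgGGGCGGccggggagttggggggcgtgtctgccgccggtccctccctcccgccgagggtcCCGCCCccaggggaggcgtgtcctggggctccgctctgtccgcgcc
The collagen IV window is 78.9% G and C and holds 2 GC boxes and 1 CCAAT in 133 bases. TINAGL1 has 7 GC box matches, several overlapping, and LAMC3 has 2. LAMB3 has neither motif in its window, nor TATAAA or TGANTCA, the AP-1 type motif. Across the 250 bases before 20656 annotated genes, GGGCGG was present in 44.4%, CCAAT in 32.0%, TATAAA in 10.4% and TGANTCA in 5.48%; among the 38 members the numbers with each were 20, 9, 2 and 4. In windows of 133 bases, GGGCGG was present in 37.8% and CCAAT in 21.4% of genes.

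Which compartment carries which part of the basement membrane was asked first, with cyclic and pregnant libraries averaged and the gilt as a block in one edgeR quasi-likelihood fit over 13887 genes (called at a Benjamini-Hochberg adjusted p of 0.01 or less). Most members were highest in BV or S and lowest in GE. BV and S were each higher than LE and GE for 20 of 37 members tested, where 14.4% of all genes showed this. GE was lower than each of the other compartments for 26 of 37 members, against 15.4% of all genes. LE was higher than all others for COL17A1, FREM2, LAMB3 and SMOC1, 4 of 37 against 8.09% of all genes, and GE for LAMA3 alone, 1 of 37 against 10.9%. A gene that passed the filter in a single compartment had to be higher there, which applies to LAMB3, COL4A4 and COL17A1.

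**Figure D1:**
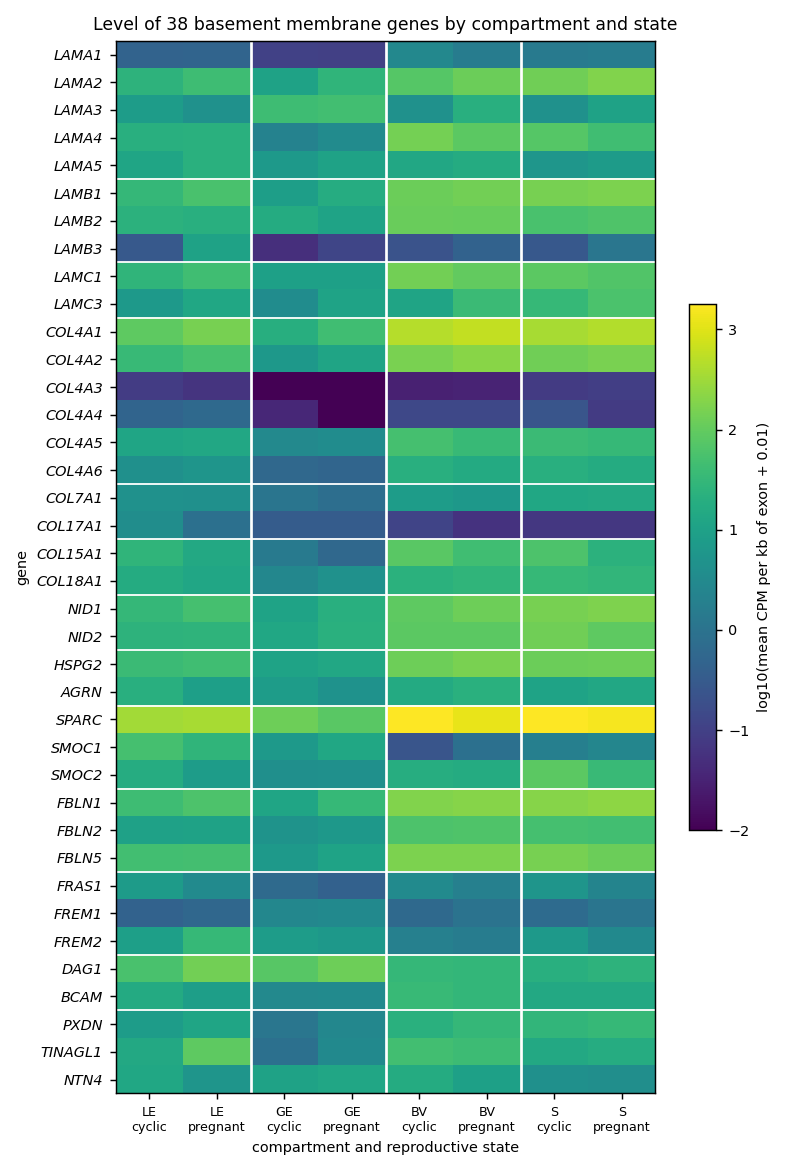
Mean level of each of the 38 genes (rows, grouped by role) in the 8 groups of libraries (columns), as log10 of CPM per kb of exon plus 0.01, with n = 4 per group and 3 for pregnant GE. The BV and S columns are brightest for most rows, SPARC is the brightest row in every compartment, and LAMB3, COL17A1 and SMOC1 are brightest in LE columns.

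By pairs of compartments, 30 of 37 members were higher in LE and 2 in GE, where 25.9% and 15.5% of all genes were. The fibroblast and endothelial marker sums also had higher medians in LE than in GE in both states. The part of these cell types in the difference between LE and GE was not tested. Against BV, LE was higher for 6 members and lower for 22 (25.8% and 23.4% of genes), and against S for 7 and 22 (26.7% and 23.9%). GE was higher than BV for 5 and lower for 28 (28.4% and 29.9%), and higher than S for 4 and lower for 28 (27.9% and 31.4%). BV and S were close, with 5 members higher in each (3.81% and 3.38% of genes). The median log2 difference of the members was 1.85 for LE against GE, -2.99 for GE against BV and 0.21 for BV against S, beside 0.13, 0.00 and -0.02 over all genes.

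Among the laminin alpha chains, LAMA2, the chain of muscle and mesenchymal laminins, was at 1699 ± 532 CPM in S (SD, n = 8), 1057 ± 306 in BV, 365 ± 135 in LE and 195 ± 99.4 in GE (n = 7), and each step passed the test. LAMA4, typical of endothelial laminins, was at 690 ± 239 CPM in BV and 356 ± 125 in S, a difference that missed the threshold (adjusted p = 0.025), and at 127 ± 55.2 CPM in LE and 16.2 ± 7.07 in GE. LAMA3, the chain of the laminin that anchors hemidesmosomes, was highest in GE. It was at 524 ± 299 CPM in GE, with a lowest library of 26.4 CPM (cyclic gilt C128), a median of 682 and a highest of 767 CPM. The BV, S and LE levels of LAMA3 (150 ± 114, 90.6 ± 46.7 and 74.2 ± 46.6 CPM) did not differ by the test. LAMA5, found under most mature epithelia and endothelia, was at 191 ± 79.0 CPM in LE, 178 ± 47.4 in BV, 99.7 ± 41.4 in GE and 76.7 ± 45.1 in S, and neighbours in this order did not differ by the test, although LE and BV each exceeded S. LAMA1, a chain known mainly from embryonic tissue, stayed at or below 40.2 CPM in every library.

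For the beta and gamma chains, LAMB1 (1069.8 ± 141 CPM in S, 869 ± 203 in BV) and LAMC1 (886 ± 190 in BV, 576 ± 87.1 in S) did not differ between S and BV and were called lower in LE and lowest in GE. LAMB2, the beta chain of vascular and muscle laminins, was higher in BV (617 ± 125 CPM) than in S (341 ± 59.7 CPM; log2 difference 0.84, adjusted p = 0.00185). LAMC3, a gamma chain outside the common laminins, was higher in S (283 ± 98.9 CPM) than in BV (151 ± 93.6 CPM; log2 difference of BV against S -1.09, adjusted p = 0.000495). LAMB3 was at 22.1 ± 33.4 CPM in LE and at a mean of 2.79 CPM or lower elsewhere, and its LE level came almost wholly from the pregnant gilts described below.

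Collagen IV was carried by 2 genes. COL4A1 was at 3359 ± 772 CPM in BV, 2638 ± 519.5 in S, 764 ± 285 in LE and 192.5 ± 86.9 in GE, and COL4A2 at 1135 ± 292, 884 ± 129, 271 ± 107 and 54.8 ± 20.1 CPM in the same order. Per kb of exon, COL4A1 made up 66.7% to 70.0% and COL4A2 20.8% to 23.5% of all collagen IV in the median library of each compartment. The ratio of COL4A2 to COL4A1 per kb had medians of 0.340 in S and BV, 0.286 in GE and 0.360 in LE and ranged from 0.270 to 0.484 over the libraries. COL4A5 (283 ± 67.8 CPM in BV and 236 ± 30.5 in S) and COL4A6 (113 ± 31.0 and 115 ± 24.4) were likewise lower in LE and lowest in GE; these neighbours on chromosome X are also divergent but 207898 bases apart. COL4A4 was at 5.45 ± 2.43 CPM in LE and at means under 2 CPM elsewhere. COL4A3, which overlaps it head to head by 663 bases on chromosome 15, had 18 counts over the 8 LE libraries, 4 in BV, 25 in S and 0 in GE. In GE 0 counts allow up to 0.161 CPM in the cyclic and 0.245 CPM in the pregnant group, taking 3 counts per group as the limit of a count of 0 (counting error only). Whether the authors' counting used strand is not given in the sources used here, so reads from the overlapping parts of these pairs cannot be assigned with certainty.

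**Figure D2:**
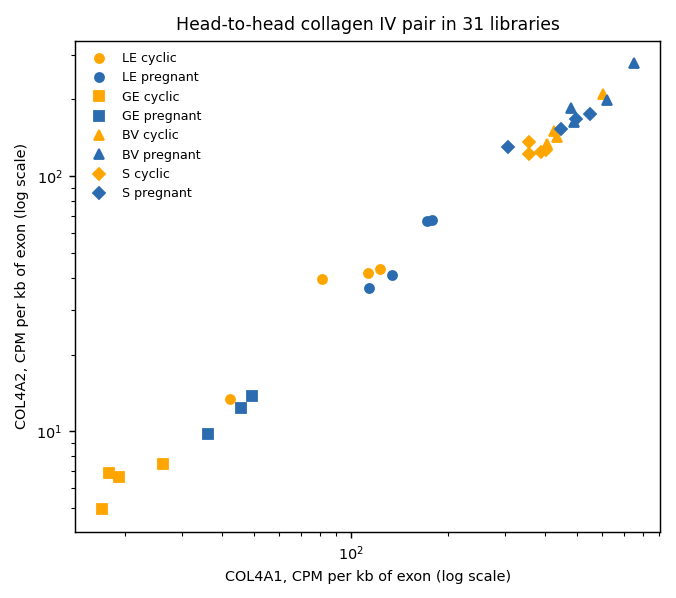
COL4A2 against COL4A1 in each of the 31 libraries, both in CPM per kb of exon on log axes, with compartments as symbols and states as colours (cyclic orange, pregnant blue). The points follow one diagonal from GE at the lower left to BV at the upper right, with COL4A2 at 0.270 to 0.484 of COL4A1; the libraries share depth and normalization.

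SPARC, a calcium-binding matrix protein that also binds collagen IV, had the highest level per kb of all members in every compartment. In CPM per kb, it ranged from 766.5 to 2409 in BV (median 1505), from 1077 to 2153 in S (median 1694), from 81.9 to 488 in LE (median 401) and from 54.4 to 189 in GE (median 106). COL4A1 came next in LE, BV and S, with medians of 118, 486 and 394.5 CPM per kb and ranges of 42.1 to 179, 405 to 751 and 306 to 552. The second place in GE and the third place in LE belonged to DAG1, which encodes dystroglycan, with medians of 103 (29.1 to 168) and 101.5 (19.4 to 165) CPM per kb. LAMA3 held the third place in GE with a median of 57.2 CPM per kb (2.21 to 64.3), and FBLN1, a fibulin that binds laminin and nidogen, the third place in BV and S with medians of 193 (149 to 242) and 213 (151 to 266). The lowest values of SPARC, COL4A1 and FBLN1 in LE came from cyclic gilt C78, the LE library with the lowest fibroblast marker sum (4147 CPM against 10204 or more in the others). The lowest DAG1 and LAMA3 values in GE came from cyclic gilt C128.

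The linker proteins followed collagen IV. NID1 was at 970 ± 210 CPM in S and 635 ± 190 in BV (adjusted p = 0.0153, not called), with 241 ± 92.3 in LE and 91.9 ± 32.0 in GE. NID2 had the same order, at 572 ± 173, 446 ± 141, 136 ± 46.0 and 90.3 ± 48.6 CPM, and LE and GE did not differ by the test. HSPG2, the perlecan core protein, was at 2114 ± 445 CPM in BV, 1835 ± 229 in S, 601 ± 127 in LE and 187 ± 36.0 in GE. AGRN, encoding agrin, was flatter, from 144 ± 47.1 CPM in BV to 50.0 ± 22.7 in GE. PXDN, the peroxidase that forms sulfilimine crosslinks in collagen IV, did not differ between S (214 ± 59.6 CPM) and BV (192 ± 53.6 CPM) and was called lower in LE and in GE (12.7 ± 7.24 CPM). The fibulins FBLN2 and FBLN5 (269 ± 30.8 and 468 ± 89.1 CPM in BV) were lower in LE and lowest in GE, and their BV and S levels did not differ by the test. COL18A1 was highest in S (217 ± 75.9 CPM), COL15A1 in BV (332 ± 146 CPM), and neither differed between S and BV.

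Some members that bind or anchor epithelium had other patterns, while FRAS1 and COL7A1 were lowest in GE, as most members were. DAG1 was higher in GE (711 ± 317 CPM) and LE (695 ± 364 CPM) than in BV (225 ± 21.7 CPM) and S (164 ± 30.7 CPM), and GE and LE did not differ by the test. FREM2, whose product joins FRAS1 and FREM1 in the Fraser complex beneath epithelia, was highest in LE (311 ± 214 CPM), followed by GE (107 ± 36.9), S (75.5 ± 80.9) and BV (26.3 ± 12.5), and GE and S did not differ by the test. FRAS1 was at 90.3 ± 49.9 CPM in LE and 9.04 ± 4.49 in GE, while FREM1 was highest in GE (33.3 ± 33.2 CPM) and called higher there than in LE and BV but not than in S (adjusted p = 0.0503). COL17A1, the transmembrane collagen of hemidesmosomes, was at 13.8 ± 17.5 CPM in LE and below 2 CPM on average elsewhere. COL7A1, the collagen of anchoring fibrils, was higher in S (131 ± 74.5 CPM) than in BV (66.3 ± 59.7 CPM; adjusted p = 0.00754).

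SMOC1 and SMOC2, related calcium-binding proteins of the SPARC family, lay in opposite compartments. SMOC1 was at 144 ± 82.0 CPM in LE, 36.0 ± 21.7 in GE, 8.05 ± 6.89 in S and 2.003 ± 1.82 in BV. SMOC2 was at 232 ± 112 CPM in S, 68.2 ± 25.4 in BV, 49.7 ± 34.1 in LE and 16.3 ± 6.62 in GE. Between BV and S, TINAGL1 (log2 difference 1.39), BCAM (1.14), LAMA5 (1.31), LAMB2 (0.84) and NTN4 (1.68) were higher in BV, and SMOC2 (-1.74), FREM2 (-1.27), COL7A1 (-1.20), LAMC3 (-1.09) and LAMA2 (-0.69) in S. BCAM encodes the Lutheran glycoprotein, a receptor of LAMA5 laminins, TINAGL1 a matrix protein related to a tubular basement membrane antigen, and NTN4 a netrin that binds laminin gamma chains. Without the block for gilt only 5 of these 10 differences passed, those of LAMC3, TINAGL1, SMOC2, BCAM and LAMB2.

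The make-up of the laminin pool differed in kind between compartments. As a share of all 5 alpha chains per kb, the leading chain was LAMA2 in LE (median 43.9%) and S (65.6%), LAMA3 in GE (61.5%) and LAMA4 in BV (48.8%). In BV this held for the cyclic gilts (means of 59.3% LAMA4 and 31.6% LAMA2), while LAMA2 led in the pregnant ones (48.9% against 35.02% LAMA4), and without division by exon length LAMA2 led in BV over both states (medians of 48.6% and 34.5%). LAMA4 was second in LE with 29.7%, and LAMA5, with 18.5% there, made up 3.05% in S. In GE, LAMA2 led in place of LAMA3 in the libraries of cyclic gilt C128 (56.9% against 13.1%) and pregnant gilt P139 (41.4% against 32.9%). LAMA5 led in place of LAMA2 in the LE library of cyclic gilt C78 (39.2% against 26.2%), the one with the lowest fibroblast marker sum. In S, LAMA4 led in cyclic gilt C128 (50.9% against 42.4% LAMA2). The part of fibroblast RNA in these shares was not tested. Among the beta chains LAMB1 led in LE (63.4%), BV (53.9%) and S (73.0%), and LAMB2 led in GE (60.5%). LAMB2 led in place of LAMB1 in LE of gilt C78 (68.15% against 31.4%). It also led in BV of gilts C78 (62.4% against 37.5%) and P139 (57.8% against 42.05%). Of LAMC1 and LAMC3, the gamma chains among the 38 genes, LAMC1 made up a median of 83.1% of their sum per kb in BV, 76.05% in LE, 64.7% in S and 51.25% in GE. These shares are descriptions and carry no test.

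**Figure D3:**
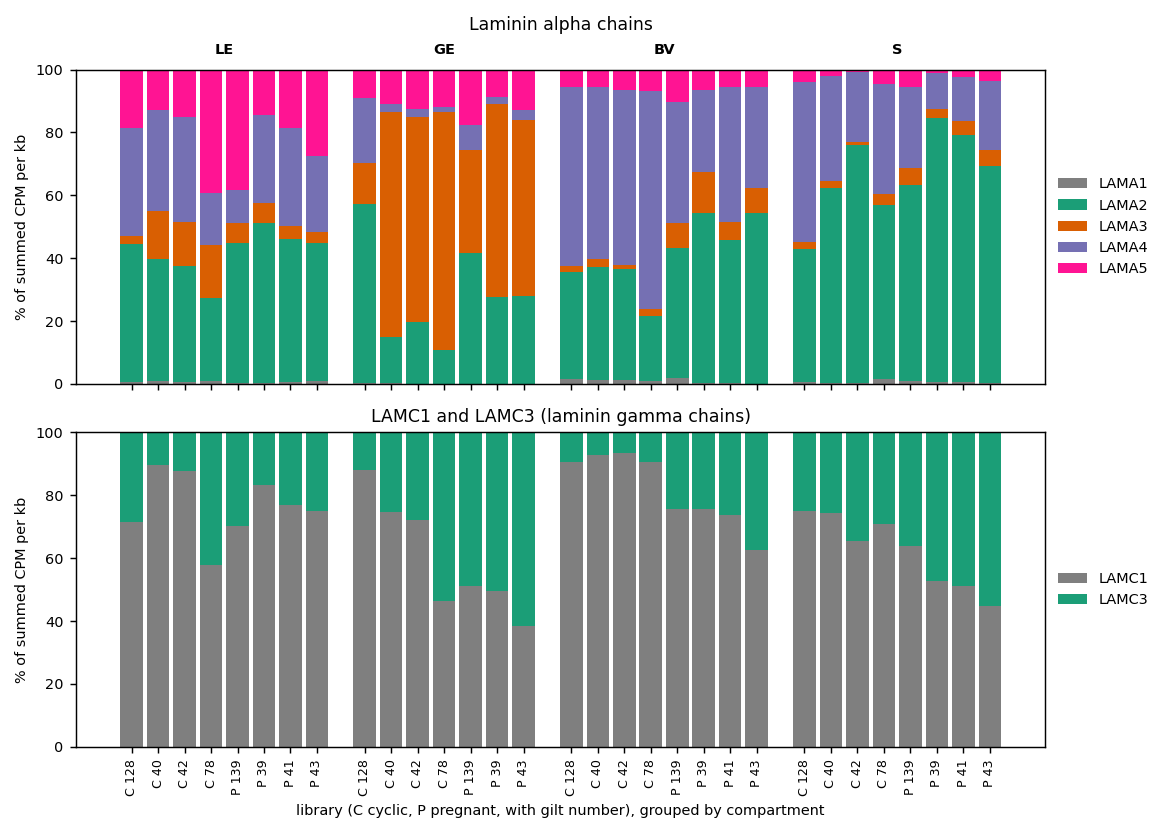
Share of each laminin alpha chain in the summed CPM per kb of the alpha chains (top), and of LAMC1 and LAMC3 in their sum (bottom), 1 bar per library, grouped by compartment and ordered cyclic then pregnant. LAMA3 fills most of the alpha bars in GE except in cyclic gilt C128 and pregnant gilt P139, where LAMA2 has the larger part. LAMC3 takes a larger part of the lower bars in pregnant than in cyclic BV (24.2% to 37.4% against 6.41% to 9.495%).

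The second question was what changed at the onset of attachment. Within each compartment, the quasi-likelihood test of edgeR was run between the states, and a gene was called at a Benjamini-Hochberg adjusted p of 0.01 in LE and, after the rule of the study's methods, at an unadjusted p up to the largest one called in LE (0.000328) in the other compartments. All members called by this test were higher in pregnant gilts. They were TINAGL1 and LAMB3 in LE (2 of 37 tested, where 3.32% of all genes were called and 2.02% were higher), FBLN1 and LAMA2 in GE (2 of 33, where 0.748% were called and 0.512% were higher), and LAMC3 and LAMA3 in BV (2 of 33, where 1.86% were called and 1.30% were higher). In S none of 34 members was called, where 0.293% of genes were; 6 members (17.6%) had an unadjusted p under 0.05, as had 14.5% of all genes. The median log2 fold change of the members was 0.15 in S, 0.02 in BV, 0.37 in GE and 0.20 in LE, beside 0.00, 0.00, -0.01 and -0.01 over all genes. The robust GLM, the test that the methods name, called 8 members in LE, 8 in GE and 4 each in BV and S, where 11.8%, 6.66%, 11.0% and 3.16% of all genes were called, and DESeq2 called 4, 8, 4 and 3, where 11.2%, 6.66%, 8.52% and 2.60% were. Not all of these were higher in pregnant gilts. The robust GLM called 3 lower in LE (FRAS1, BCAM and NTN4), 1 in BV (LAMA1) and 2 in S (SMOC2 and COL15A1). DESeq2 called 1 lower in LE (BCAM), 1 in BV (LAMC1) and 1 in S (SMOC2).

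**Figure D4:**
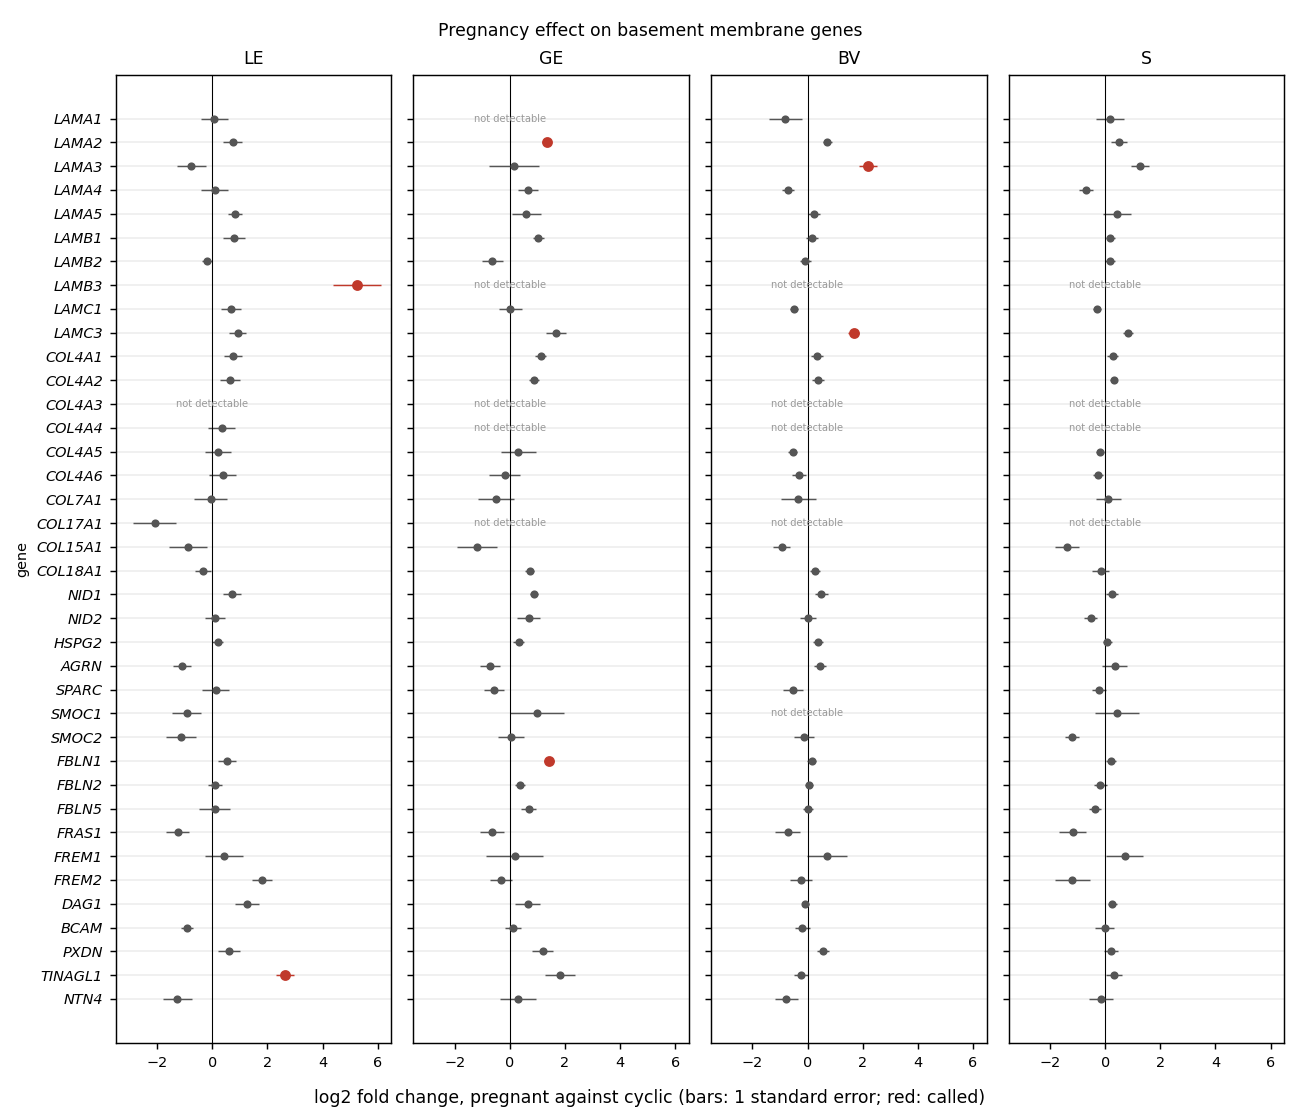
Log2 fold change of each member between pregnant and cyclic gilts in LE, GE, BV and S (points, with bars of 1 standard error), with called members in red and genes outside the filtered table marked as not detectable. The 6 called points are all to the right of 0, and in GE 25 of 33 points are.

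In LE, TINAGL1 was at 17.4, 25.3, 40.5 and 25.0 CPM in cyclic gilts C128, C40, C42 and C78 and at 246, 150.5, 147 and 125 CPM in pregnant gilts P139, P39, P41 and P43. Every pregnant library was above every cyclic one. The log2 fold change was 2.65 (SE 0.32; adjusted p = 0.00202), a 6.26-fold higher level, and without cyclic gilt C40 the gene just missed the threshold (adjusted p = 0.0118). TINAGL1 is also a gene of the vessels here, with 44.8 to 107 CPM in BV. The endothelial markers in LE, of which 9 of 10 were detectable, none was at 0, none was called and all 9 had a positive log2 fold change, summed to 140 to 760 CPM in cyclic and 436 to 1077 CPM in pregnant gilts. These ranges overlapped. Other markers did not overlap in LE: the epithelial ones summed to 3154 to 3727 CPM in cyclic and 2645 to 2911 CPM in pregnant gilts, with 2 of 12 called lower, and the leukocyte ones to 63.7 to 87.8 and 91.9 to 164 CPM, with none of 4 detectable called. Of the fibroblast markers 1 of 9 was called higher and 8 had a positive log2 fold change, with sums of 4147 to 14514 CPM in cyclic and 10629 to 17304 CPM in pregnant gilts. The part of these cell types in the LE results was not tested.

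LAMB3, the beta chain that pairs with LAMA3 in the hemidesmosomal laminin, was at 0, 1.09, 2.85 and 0.683 CPM in cyclic LE (gilts C128, C40, C42 and C78), from 0, 5, 10 and 3 counts, 18 in all beside 675 in pregnant LE. With so few cyclic counts it passed the filter through the pregnant libraries, where it is high, so that its presence in the test already required a difference. In pregnant LE it was at 99.0, 31.8, 15.4 and 26.3 CPM (gilts P139, P39, P41 and P43). The groups did not overlap, and gilt P139 stood above the other pregnant gilts. The log2 fold change was 5.25 (SE 0.86; adjusted p = 0.00671). The call held without pregnant gilt P41 but was lost when any of the other 7 libraries was left out, with adjusted p up to 0.0283 and log2 fold changes between 4.40 and 6.07. As a share of the beta chains per kb, LAMB3 had a median of 0.456% in cyclic and 8.93% in pregnant LE and reached 32.7% in gilt P139.

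LAMA3, the alpha chain that partners LAMB3, was not called in LE. It was at 20.9, 159, 125 and 70.8 CPM in cyclic LE (gilts C128, C40, C42 and C78) and 63.5, 77.3, 46.6 and 31.7 CPM in pregnant LE (gilts P139, P39, P41 and P43), overlapping values (log2 fold change -0.76, SE 0.53, adjusted p = 0.397). COL17A1, of the same anchoring structure, was at 1.61, 53.7, 22.5 and 11.6 CPM in cyclic and 4.63, 4.45, 7.28 and 4.16 CPM in pregnant LE. The pregnant values lay within the cyclic range (log2 fold change -2.08, SE 0.78, adjusted p = 0.119).

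In addition to the called members, the robust GLM and DESeq2 both called FREM2 and BCAM in LE. FREM2 was at 217, 112, 70.2 and 157 CPM in cyclic and 354.5, 692, 505 and 383.5 CPM in pregnant LE. The groups did not overlap, and the quasi-likelihood test gave a log2 fold change of 1.81 (SE 0.36; adjusted p = 0.0140). BCAM was the one of these that was lower in pregnant LE, at 45.2, 54.2, 61.3 and 44.4 CPM in cyclic and 16.7, 32.8, 28.3 and 31.1 CPM in pregnant gilts (log2 fold change -0.91, SE 0.22, adjusted p = 0.0313). Its groups did not overlap either. In LE 8 of 37 members had groups that did not overlap, where 19.4% of all genes did; besides TINAGL1, LAMB3, FREM2 and BCAM these were LAMA2, LAMA5 and DAG1, with higher values in pregnant gilts, and AGRN, with lower values. LAMA5 had a log2 fold change of 0.83 (adjusted p = 0.0667), DAG1 of 1.27 (adjusted p = 0.0879) and AGRN of -1.10 (adjusted p = 0.0568). The robust GLM called DAG1 (robust GLM adjusted p = 0.00617) but not LAMA5 or AGRN. It also called LAMC3 higher in pregnant LE (log2 fold change 1.07, robust GLM adjusted p = 0.00320), where the groups overlapped. DESeq2 called none of these genes in LE. The low DAG1 values of cyclic gilts C128, C40 and C42 (140, 390 and 402 CPM) stood beside 701 CPM in cyclic gilt C78 and 770 to 1193 CPM in pregnant gilts.

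In GE, FBLN1 was at 40.8, 49.6, 37.8 and 36.2 CPM in cyclic gilts C128, C40, C42 and C78 and 103, 131 and 98.0 CPM in pregnant gilts P139, P39 and P43. The lowest pregnant value was well above the highest cyclic one. The log2 fold change was 1.42 (SE 0.17; adjusted p = 0.0276), and the call held whichever library was left out. LAMA2 was at 105, 142, 123 and 99.6 CPM in cyclic and 265, 317 and 315 CPM in pregnant GE, again without overlap (log2 fold change 1.34, SE 0.17, adjusted p = 0.0287). Its call was lost without pregnant gilt P39 or P43, with adjusted p up to 0.102.

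A set of collagen IV, laminin and nidogen genes stood close to the threshold in GE. COL4A1 was at 114, 167, 122 and 108 CPM in cyclic and 292, 230 and 315 CPM in pregnant gilts (log2 fold change 1.12, SE 0.20, adjusted p = 0.0451). LAMB1 was at 70.9, 65.9, 60.8 and 42.6 CPM in cyclic and 136, 124 and 111 CPM in pregnant gilts (1.04, SE 0.19, adjusted p = 0.0451). NID1 was at 58.1, 75.1, 72.1 and 63.6 CPM in cyclic and 137, 113 and 124 CPM in pregnant gilts (0.88, SE 0.15, adjusted p = 0.0436). All 3 had groups that did not overlap. COL4A2 was at 42.8, 46.3, 40.999 and 30.7 CPM in cyclic and 76.9, 60.5 and 85.1 CPM in pregnant gilts (0.88, SE 0.19, adjusted p = 0.0582). LAMC3 was at 15.3, 15.2, 16.4 and 38.4 CPM in cyclic and 74.8, 51.4 and 80.1 CPM in pregnant gilts (1.67, SE 0.37, adjusted p = 0.0621), and cyclic gilt C78 stood apart from the other cyclic gilts. These 5 genes missed the limit of the quasi-likelihood test, but both the robust GLM and DESeq2 called them together with FBLN1 and LAMA2. With PXDN in the robust GLM and COL18A1 in DESeq2, each of those tests called 8 of 33 members in GE, all higher in pregnant gilts, where 6.66% of all genes were called (4.19% and 3.75% higher).

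Groups did not overlap for 11 of 33 members in GE, all with higher pregnant values, where 22.9% of all genes did. The remaining 4 were COL18A1, FBLN2, FBLN5 and TINAGL1, the last from 0.606 to 2.76 CPM in cyclic to 3.29 to 8.91 CPM in pregnant gilts. FBLN1, LAMA2, COL4A1, LAMB1, NID1 and COL4A2 are genes with far higher levels in BV and S than in GE. Fibroblast markers in GE, with 9 of 9 detectable, none called and 5 positive log2 fold changes, summed to 2904 to 7556 CPM in cyclic and 3673 to 6608 CPM in pregnant gilts, with all pregnant values inside the cyclic range. Endothelial markers in GE, with 5 of 10 detectable, none called and all 5 log2 fold changes positive, were at 16.8 to 47.3 CPM in cyclic and 21.7 to 189 CPM in pregnant gilts, also overlapping. Leukocyte markers (10 genes, among them PTPRC and CD14), with 5 detectable in GE, none called and 3 positive log2 fold changes, did not overlap, at 55.5 to 78.9 CPM in cyclic and 105.6 to 142 CPM in pregnant gilts. The part of these cell types in the GE results was not tested. The laminin beta pool of GE was led by LAMB2 in every cyclic library (60.5% to 74.3% of the beta chains per kb) and by LAMB1 in the pregnant ones, where LAMB2 made up 31.0% to 45.5%.

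In BV, LAMC3 was at 74.6, 68.9, 60.5 and 86.3 CPM in cyclic gilts C128, C40, C42 and C78 and 182, 180, 247 and 311 CPM in pregnant gilts P139, P39, P41 and P43. No values overlapped, the log2 fold change was 1.67 (SE 0.20; adjusted p = 0.0130), and the call held whichever library was left out. LAMA3 was at 48.4, 70.1, 27.3 and 72.2 CPM in cyclic and 228, 349, 171 and 236 CPM in pregnant BV, without overlap (2.19, SE 0.32, adjusted p = 0.0130). Its call was lost without cyclic gilt C128 (adjusted p = 0.0458). Epithelial markers moved with these results: 9 of the 12 were detectable in BV, none was at 0, 3 were called higher and all 9 had a positive log2 fold change, and their sum was 3.69 to 56.3 CPM in cyclic and 197 to 369 CPM in pregnant libraries. LAMA3 is highest in GE, and the part of epithelial RNA in the LAMA3 result was not tested. LAMC3 is lower in GE and LE than in BV and S, and the part of epithelial RNA in its result was not tested either. Members called higher in LE than in BV and S were COL17A1, DAG1, FREM2, LAMB3 and SMOC1. LAMB3 and SMOC1 were at 0.599 to 1.01 and 0.300 to 1.99 CPM in cyclic BV and at 1.48 to 2.27 and 0.846 to 4.98 CPM in pregnant BV. DAG1, FREM2 and COL17A1 had means of 233, 28.5 and 0.663 CPM in cyclic BV and 217, 24.1 and 0.295 CPM in pregnant BV. LAMB3, SMOC1 and COL17A1 were not detectable in BV by the filter.

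LAMA2 in BV was at 829, 929, 825 and 623 CPM in cyclic and 1096, 1359, 1289.5 and 1504 CPM in pregnant gilts, without overlap. Both other tests called it, but the quasi-likelihood test did not (log2 fold change 0.72, SE 0.16, adjusted p = 0.0316). LAMA4, LAMC1 and COL4A5 had lower values in pregnant BV without overlap, with log2 fold changes of -0.70, -0.50 and -0.54 and adjusted p of 0.0811, 0.0602 and 0.0667, so that 6 of 33 members did not overlap, where 18.2% of all genes did. LAMA4 made up 54.6% to 69.5% of the alpha chains per kb in cyclic BV and 26.2% to 42.99% in pregnant BV. LAMA2 made up 20.6% to 36.1% and 41.5% to 54.4%. Smooth muscle markers in BV (10 genes, among them ACTA2 and MYH11, all with a negative log2 fold change and none called) summed to 6779 to 20933 CPM in cyclic and 1363 to 7860 CPM in pregnant gilts, and the endothelial ones to 1610 to 3078 and 1950 to 3194 CPM; their part in these shares was not tested.

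In S, LAMC3 was at 173, 182, 252 and 208 CPM in cyclic gilts C128, C40, C42 and C78 and 279, 384, 340 and 445 CPM in pregnant gilts P139, P39, P41 and P43. The groups did not overlap, and the log2 fold change was 0.83 (SE 0.19; adjusted p = 0.114). LAMA3 was at 44.9, 60.0, 24.8 and 83.5 CPM in cyclic and 163, 97.6, 117 and 134.5 CPM in pregnant S (1.26, SE 0.32, adjusted p = 0.154). SMOC2 was at 371, 363, 344 and 219 CPM in cyclic and 84.4, 175, 138 and 161 CPM in pregnant S (-1.21, SE 0.25, adjusted p = 0.111). These 3 were the members without overlap, of 34, where 8.81% of all genes had none, and all 3 were called by the robust GLM and DESeq2. Without cyclic gilt C78, SMOC2 passed the unadjusted limit of the quasi-likelihood test as well (adjusted p = 0.0715). Epithelial markers in S, with 10 of 12 detectable, none called and all 10 log2 fold changes positive, were at 12.0 to 205 CPM in cyclic and 43.3 to 527 CPM in pregnant gilts. Smooth muscle markers in S, of which 9 of 10 were detectable, 1 was called lower and 2 had a positive log2 fold change, summed to 612 to 1485 CPM in cyclic and 595 to 750 CPM in pregnant gilts. The part of these cell types in the S results was not tested. COL15A1, a collagen at the border of basement membranes and interstitial matrix, was lower in pregnant gilts in all compartments by the fold change (-1.38 in S, -0.93 in BV, -1.19 in GE and -0.88 in LE) and was called by the robust GLM in S.

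LAMC3 had positive fold changes in every compartment (0.83 in S, 1.67 in BV and GE, and 0.92 in LE), with pregnant LE at 99.5, 74.5, 76.1 and 69.5 CPM (gilts P139, P39, P41 and P43) beside 71.2, 25.6, 29.4 and 44.8 CPM in cyclic LE (gilts C128, C40, C42 and C78). Of the 32 members tested in all compartments, 11 had higher fitted values in pregnant gilts in all of them and 2, COL15A1 and FRAS1, had lower values in all. The 11 were LAMA2, LAMA5, LAMB1, LAMC3, COL4A1, COL4A2, NID1, HSPG2, FBLN1, FREM1 and PXDN. The share of all genes with the same sign in every compartment was not computed. These counts therefore cannot be read as a trait of the members. FREM1 is uncertain in GE, where it was at 10.8, 54.4, 34.7 and 25.4 CPM in cyclic and 2.56, 8.38 and 96.8 CPM in pregnant gilts, and where the robust GLM gave a log2 fold change of -1.81 (adjusted p = 0.0704) in place of 0.17. The libraries of a gilt come from one animal, so that these compartments are not independent of each other.

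**Figure D5:**
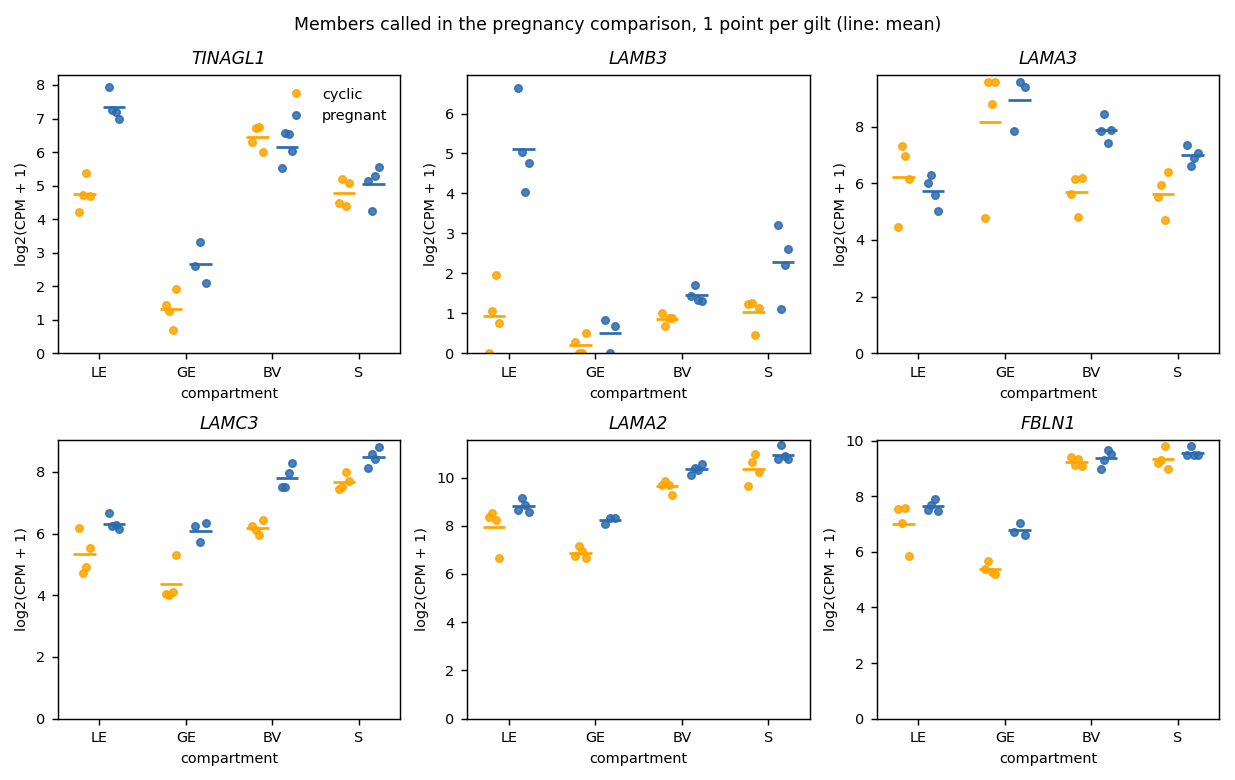
Log2(CPM + 1) of the 6 members called in a compartment, with 1 point per gilt (cyclic orange, pregnant blue) and a line at the group mean, in LE, GE, BV and S. TINAGL1 and LAMB3 separate in LE, LAMA3 and LAMC3 in BV, and LAMA2 and FBLN1 in GE.

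A difference of the pregnancy effect between compartments was sought for the 32 members detectable in all of them, with the gilt as a block. TINAGL1 was called (edgeR quasi-likelihood F = 14.1, adjusted p = 0.00242), 1 of 32 members where 3.05% of 9727 genes were. Its log2 fold changes were 0.32 in S, -0.24 in BV, 1.81 in GE and 2.65 in LE, and in BV its cyclic values of 77.3, 104, 107 and 62.5 CPM overlapped with pregnant values of 44.8, 93.2, 92.7 and 64.6 CPM. FREM2 (adjusted p = 0.0202), FBLN1 (0.0264) and SMOC2 (0.0513) came next and missed the threshold. LAMA3 (adjusted p = 0.126) and LAMC3 (0.218) were not shown to respond differently in BV and the other compartments. Without gilt C128, LAMA3 was called and TINAGL1 was not.

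Other genes of the pathway were taken from lists of further matrix proteins, integrins and hemidesmosome proteins, the dystroglycan complex, enzymes of heparan sulfate and enzymes of collagen, 76 genes in all. Of all genes, 1.30% were called higher in pregnant BV, 0.512% in GE and 2.02% in LE, and 0.293% were called in either direction in S. Among the listed genes, 0 of 69 tested were called higher in S, 1 of 70 in BV, 0 of 59 in GE and 2 of 66 in LE, and none was called lower. In LE these were DST, which encodes the hemidesmosome linker dystonin (240 ± 66.5 CPM in cyclic and 667 ± 145 in pregnant gilts, SD, n = 4 each, log2 fold change 1.49, edgeR adjusted p = 0.00933), and HS6ST1, a heparan sulfate sulfotransferase (33.9 ± 5.09 and 77.3 ± 8.06 CPM, n = 4 each, 1.20, edgeR adjusted p = 0.00375). In BV it was DDR1, a collagen receptor of epithelial cells (10.1 ± 1.57 and 23.9 ± 4.98 CPM, n = 4 each, 1.25, edgeR adjusted p = 0.0163). Epithelial markers were also higher in pregnant BV, and the part of epithelial RNA in the DDR1 result was not tested.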

How the data were processed

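Gene counts of 31 LCM libraries were analysed, from 4 compartments of 8 gilts, with 3 pregnant GE libraries. The deposited values are raw counts per NCBI gene. Before deposit, the authors used Trim Galore for trimming, Hisat2 for alignment to Sscrofa11.1, a NuGEN tool against PCR duplicates and QuasR for counting, and then filtered by CPM; the cutoff and the strand setting are not given in the sources used here. Depth was 2415216 to 7081556 counts per library.

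Pregnant and cyclic libraries were compared per compartment with edgeR 4.0.16 (R 4.3.3; TMM, quasi-likelihood F test, Benjamini-Hochberg over the filtered table), and compartments and the compartment by pregnancy terms in joint fits blocked by gilt. The numbers pair libraries because they name the animal: deviations of libraries of the same gilt correlated with a median r of 0.165 (45 pairs, from -0.140 to 0.372), against -0.0513 for other gilts. CPM come from joint TMM factors, and standard errors from the coefficient and its F. edgeR's robust GLM, DESeq2 1.42.0, other scalings and filters, and left-out libraries were the alternatives. The script was tested on simulated data. Values in every sample are given for called members, for members called by both other tests, and for the highest levels per kb in each compartment; values of other members were chosen after they had been seen. The members and lists were chosen with earlier results of these data known.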

Additional observations from a re-analysis of the deposited data

Results flagged for a closer look

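LAMC3 in cyclic GE was 38.4 CPM in gilt C78, while the next highest cyclic gilt was at 16.4 CPM; the gap was 0.951 of the range of the group, above Dixon's limit for 4 samples. It was 1 of 27 groups of member values examined in this way, and chance marks about 1 in 20 such groups. The pregnancy effect on TINAGL1 differed between LE, GE, BV and S (edgeR quasi-likelihood test of the 3 interaction terms, adjusted p = 0.00242), and this call was lost without gilts C128, C40 or P139 (adjusted p up to 0.0218).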

How the results depend on the processing

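The members called, or called by both other tests, kept the direction of their pregnancy effect under the alternatives run. Without division by exon length the share of each leading chain stayed within its SD, but LAMA2 then led in BV in place of LAMA4. Over all 137 member effects in a compartment, DESeq2 turned none and the robust GLM turned 7, none of them called by a test that gave a p (DESeq2 gave none for COL7A1 in BV): FREM1 in GE (-1.81 in place of 0.17), COL7A1 in BV (0.79 in place of -0.33), GE (0.12 in place of -0.50) and LE (0.16 in place of -0.06), and FREM2 in BV (0.05 in place of -0.23), SMOC2 in GE (-0.02 in place of 0.05) and NID2 in BV (-0.01 in place of 0.03). Numbers of members called between pregnant and cyclic gilts, 2 each in LE, GE and BV and 0 in S by the quasi-likelihood test, became 4, 8, 4 and 3 with DESeq2 and 8, 8, 4 and 4 with the robust GLM, beside 11.2%, 6.66%, 8.52% and 2.60% and 11.8%, 6.66%, 11.0% and 3.16% of all genes. A false discovery rate of 5% within the compartment gave 4 in LE and 5 in GE. In BV it added LAMA2 (quasi-likelihood adjusted p = 0.0316). No filter on low counts gave 1 in S (SMOC2). The shares of all genes called at 5%, without a filter or with a library left out are not given here. RLE factors, library totals and edgeR's filterByExpr left the numbers of members called as they were, and moved the median of all genes by at most 0.10 on the log2 scale. Leaving out 1 library at a time gave 0 to 1 in S, 1 to 2 in BV, 1 to 3 in GE and 0 to 3 in LE; LE fell to 0 without cyclic gilt C40, to 1 without cyclic gilt C42 or pregnant gilts P139, P39 or P43, GE to 1 without pregnant gilt P39 or P43 and BV to 1 without cyclic gilt C128. FREM2 in LE was called without cyclic gilt C128 (adjusted p = 0.00889), and COL4A1 without cyclic gilt C40 (0.0475) and LAMC3 without cyclic gilt C78 (0.0467) in GE. Between compartments, leaving out 1 gilt gave 28 to 32 members for LE against GE, 27 to 28 for LE against BV, 27 to 29 for LE against S, 31 to 33 for GE against BV, 30 to 35 for GE against S and 5 to 10 for BV against S, with 5 without gilt C42 and 6 without gilts C40, P39, P41 or P43. No replicate block for the gilt gave 5 members for BV against S in place of 10 and changed no other number by over 1.5 times. The test of differing pregnancy effects called 0 to 1 members when a gilt was left out, LAMA3 in place of TINAGL1 without gilt C128, and 3 (TINAGL1, FBLN1 and FREM2) at 5%. No paired analysis was possible within a compartment because pregnant and cyclic gilts are different animals. With 3 or 4 gilts per group and spreads such as those of cyclic LE gilt C78 and cyclic GE gilt C128, a call that was missed does not show equal levels. The cause of these changes was not tested.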
